A study of Homo sapiens with 4 samples.

Results

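The genes described here carry MHC class I and class II antigen presentation. They were taken by name as a set of 33 genes, 20 of class I, 11 of class II and the 2 stress ligand genes MICA and MICB, out of 43714 genes in the deposited counts, and all 33 had enough counts to be tested. MDA-MB-231 is an established human triple-negative breast cancer line of mesenchymal character, and both groups come from one stable transfection of it with 7TGP, a plasmid in which 7 TCF sites drive EGFP so that green cells report Wnt transcription through beta-catenin. After puromycin selection at 3 ug/mL and 8 rounds of sorting and regrowth, the cells were split into MDA-MB-2317TGP-NEG (called reporter-negative here, over 95% of cells without EGFP) and MDA-MB-2317TGP-POS (called reporter-positive here, over 80% of cells with EGFP). Both lines carry the reporter and grew in DMEM with 10% FBS, neither had any other treatment named in the labels, and each gave 2 libraries. They are called N1 and N2 (reporter-negative) and P1 and P2 (reporter-positive). Whether N1 and N2, or P1 and P2, are separate cultures is not stated, so every p-value speaks of the spread among these 4 libraries, possibly technical spread. Each state is 1 line, and its reporter activity and its other properties cannot be told apart.

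Class I molecules show fragments of proteins made inside the cell to CD8 T cells. The proteasome cuts the proteins, the TAP1/TAP2 transporter moves the peptides into the endoplasmic reticulum, ERAP1 and ERAP2 trim them, tapasin (TAPBP) helps load them, and the heavy chain then travels to the surface with beta-2 microglobulin (B2M). Class II molecules are usually made by professional antigen-presenting cells and show peptides from the endosomal route to CD4 T cells: the invariant chain CD74 guards their groove, and HLA-DM exchanges its remnant for a peptide. NLRC5 is the transactivator of class I genes and CIITA that of class II genes, both acting through the RFX complex at a shared promoter module, while interferons act through IRF1 and NF-kappaB acts at an upstream enhancer.

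Promoter sequences of some members that rose, and of B2M, are shown first, because genes of this pathway are known to be switched on together through promoter elements of the kinds marked. PSMB8, PSMB9, PSME1 and IRF1 also rose and are not shown. The stretches were chosen, so they do not tell how often members that rose hold such elements. RefSeq promoters on GRCh38.p14 were at hand for 28 of the 33 members. They are the reference sequence, and the alleles of MDA-MB-231 may differ. Positions are counted from the start that RefSeq gives, which is not always that of the GENCODE 29 spans used for the counts: the stretches of TAP1, PSMB10 and PSME2 lie inside the GENCODE span of their own gene, and that of TAP2 reaches its edge. All 30 bases of each of these 4 stretches lie in GENCODE exons, as do the 135 of HLA-B, which fall in a pseudogene on the other strand. In HLA-B and HLA-C capitals mark matches on either strand to the kappaB consensus, the CRE core TGACG and the CCAAT box. In B2M they mark the kappaB consensus, TGACG and the interferon-stimulated response element (ISRE) core, which is GAAA, any 2 bases and GAAA again, and in the other genes they mark the ISRE core alone. Overlapping matches run together, as the ISRE pair does in B2M and TAP1. Each line reads 5′ to 3′ on the strand of its gene:
HLA-B (chr6:31357230-31357364, minus strand, 185 to 51 bases before the RefSeq start): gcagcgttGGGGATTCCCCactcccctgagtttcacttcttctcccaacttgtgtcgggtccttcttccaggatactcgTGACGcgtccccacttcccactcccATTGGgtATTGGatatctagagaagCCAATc
HLA-C (chr6:31272143-31272277, minus strand, 185 to 51 bases before the RefSeq start): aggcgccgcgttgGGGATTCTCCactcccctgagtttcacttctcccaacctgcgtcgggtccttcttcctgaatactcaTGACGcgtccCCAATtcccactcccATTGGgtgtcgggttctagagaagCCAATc
B2M (chr15:44711367-44711451, plus strand, 150 to 66 bases before the RefSeq start): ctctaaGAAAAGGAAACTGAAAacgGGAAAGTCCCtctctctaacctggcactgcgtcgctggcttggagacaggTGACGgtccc
TAP1 (chr6:32853815-32853844, minus strand, 140 to 111 bases before the RefSeq start): ggccgcTTTCGATTTCGCTTTCccctaaat
TAP2 (chr6:32838778-32838807, minus strand, 68 to 39 bases before the RefSeq start): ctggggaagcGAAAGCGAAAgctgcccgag
PSMB10 (chr16:67936851-67936880, minus strand, 30 to 1 bases before the RefSeq start): ggtaaaggcGAAAGCGAAAgcaggaagtac
PSME2 (chr14:24146619-24146648, minus strand, 38 to 9 bases before the RefSeq start): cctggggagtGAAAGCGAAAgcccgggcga

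The ISRE core lay within the 250 bases before the RefSeq start in 9 of the 28 members (HLA-F, B2M, TAP1, TAP2, TAPBP, PSMB10, PSME2, ERAP2 and RFX5), or 32.1%, against 3.02% of all 35116 RefSeq promoters. Of these 9, TAP1, TAP2, PSMB10 and PSME2 rose in the comparison below and the others did not pass its test. The remaining members that rose (HLA-B, HLA-C, PSMB8, PSMB9, PSME1 and IRF1) had no ISRE core in that window. The kappaB consensus was found in 11 of the 28, or 39.3%, against 9.96% of all promoters. TGACG was found in 12, or 42.9%, against 21.2%, and CCAAT in 17, or 60.7%, against 32.0%. The TCF/LEF core CTTTGAT, the kind of site that drives the reporter, was found in TAP1 and ERAP2, or 7.14% of the 28, against 2.26% of all promoters. The shares compared here differ in unit. A member was counted if any of its promoter entries matched, and 9 of the 28 had more than a single entry. The share of all promoters was taken over single entries, so the member shares are raised somewhat by this. A match is a string of letters, not a bound site, and a window without a match says nothing of the factor.

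Library totals ran from 55894092 to 63034563 counts. Levels are given as CPM, counts scaled to library size with TMM. A gene is said to have risen or fallen where edgeR's quasi-likelihood test, fitted on all 30952 genes with enough counts, gave a Benjamini-Hochberg adjusted p under 0.05; every adjusted p below is of this kind. The test called 22.4% of those genes, 11.6% as higher in P1 and P2 and 10.9% as lower. Of 4 markers that mesenchymal breast cancer lines express, VIM, CD44 and EGFR were at 236 CPM or more in each library and KRT18 at 54.5 CPM or more. VIM and KRT18 fell and CD44 rose (calls made in 11, 9 and 7 of 11 alternative fits), and the sum of the 4 went from between 3261 and 3388 CPM in N1 and N2 to between 1944 and 2078 CPM in P1 and P2, mostly through VIM (2.05-fold lower, adjusted p = 1.91e-07). The part of that shift in the results below was not tested. The triple-negative markers ESR1 and PGR and the epithelial gene CDH1 were at 6.18 CPM or less, while ERBB2 stood at 63.9 to 81.1 CPM. Markers of B and T cells (MS4A1, CD79A, CD3D, CD3E, CD2) lay at or below 0.158 CPM in every library. The 17 leukocyte and antigen-presenting cell markers in the table summed to between 181 and 188 CPM in N1 and N2 and between 166 and 179 CPM in P1 and P2. CSF1R made up most of that sum and shares its span with the pseudogene RPL7P1; it is named after its values were seen. Of the 8 markers tested none rose and 2, LYZ and CD68, fell. Several markers named here overlap other genes: CD68 with AC016876.2 (1170% of its counts) and LYZ with AC020656.1 (37.8%). KRT18 overlaps KRT8 (396%) and VIM overlaps VIM-AS1 (36.9%). The values of these markers may therefore hold reads of other genes.

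The called class I members mostly rose and the called class II members fell, in small steps; the difference between the classes was not tested. Of the 20 class I members 10 rose (HLA-B, HLA-C, TAP1, TAP2, PSMB8, PSMB9, PSMB10, PSME1, PSME2 and IRF1), 1 fell (NLRC5) and 9 did not pass, with a median log2 fold change of 0.23. Each of the 10 overlaps a gene with at least 10% of its counts. HLA-B shares reads with HLA-C, and PSMB9 with TAP1 and PSMB8, so they are not 10 separate observations. TAP2, PSMB10, PSME1, PSME2 and IRF1 overlap genes outside the members, so part of their reads may belong to those genes. The 4 class I members with little overlap (B2M, HLA-E, IRF2 and TAPBP) did not pass. None of the 11 class II members rose, 3 fell (CD74, HLA-DMA and HLA-DMB) and 8 did not pass, with a median of -0.08. Over all genes tested 11.6% were called higher and 10.9% lower, with a median of -0.01. Among the stress ligands MICA fell. No called member changed by more than 1.44-fold, and in bulk RNA a change in the share of cells that express a gene and a change in RNA per cell cannot be told apart. The lines' libraries did not overlap for 16 of 20 class I, 7 of 11 class II and both stress ligand genes, beside 57.7% of all genes tested. Scaling to total counts alone left 6 class I genes higher and 3 lower (median 0.15), and turned no called member's direction. The calls of HLA-B, PSMB8, PSMB10, PSME2 and IRF1 were each lost when some single library was left out. Leaving out P1 or P2 gave 3 lower class I genes in each case, and leaving out N1 or N2 left 0 class II genes called.

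**Figure D1:**
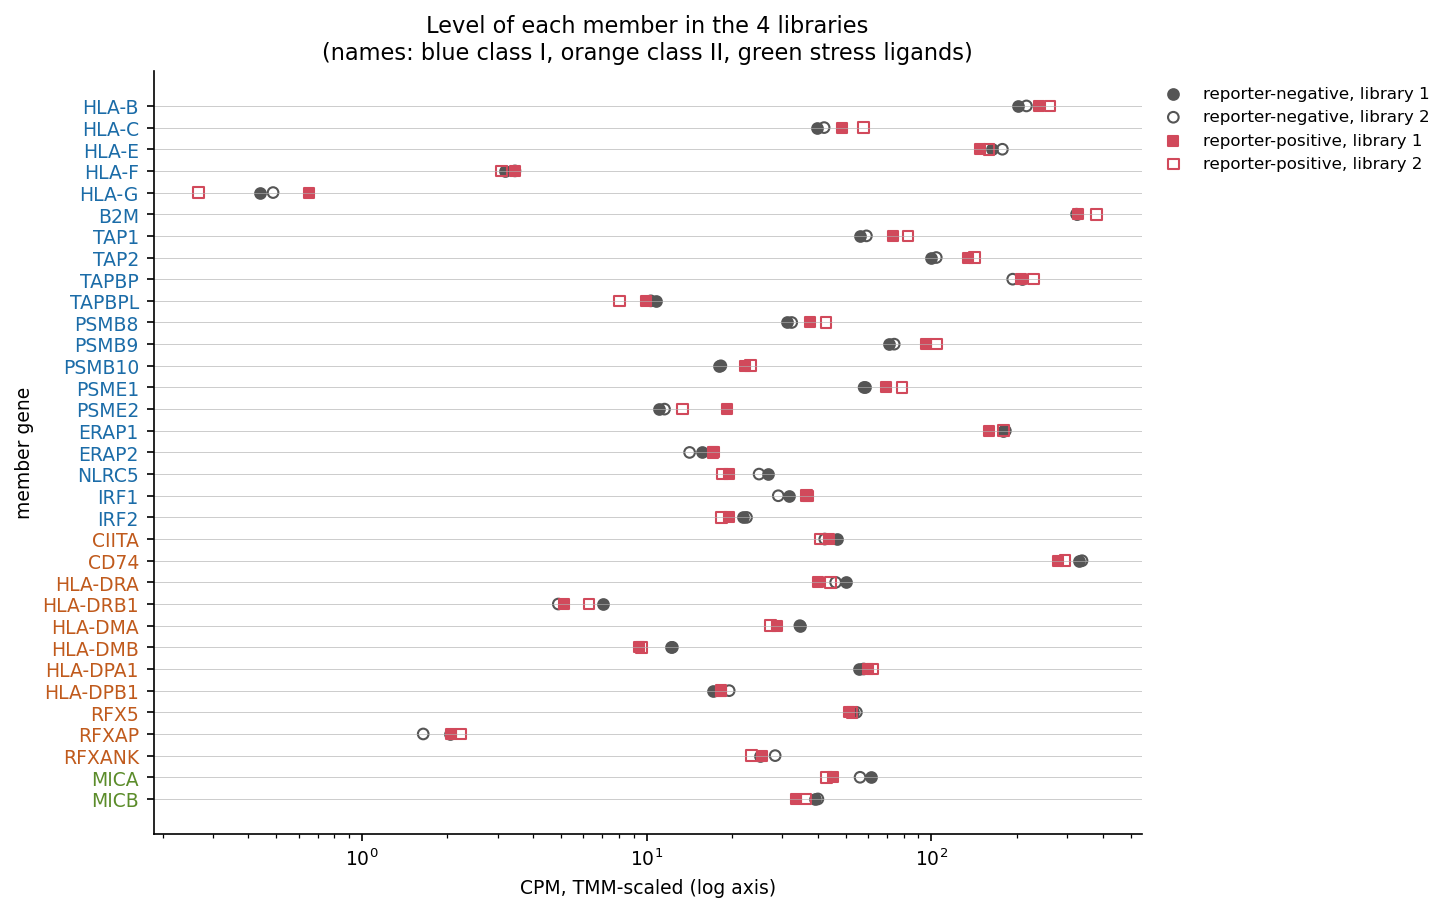
Level of each of the 33 members in the 4 libraries, in CPM on a log axis, with circles for reporter-negative and squares for reporter-positive libraries (filled, library 1; open, library 2). B2M, CD74, HLA-B, TAPBP, ERAP1 and HLA-E lie above 140 CPM in each library, and HLA-G lies below 1 CPM in each.

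**Figure D2:**
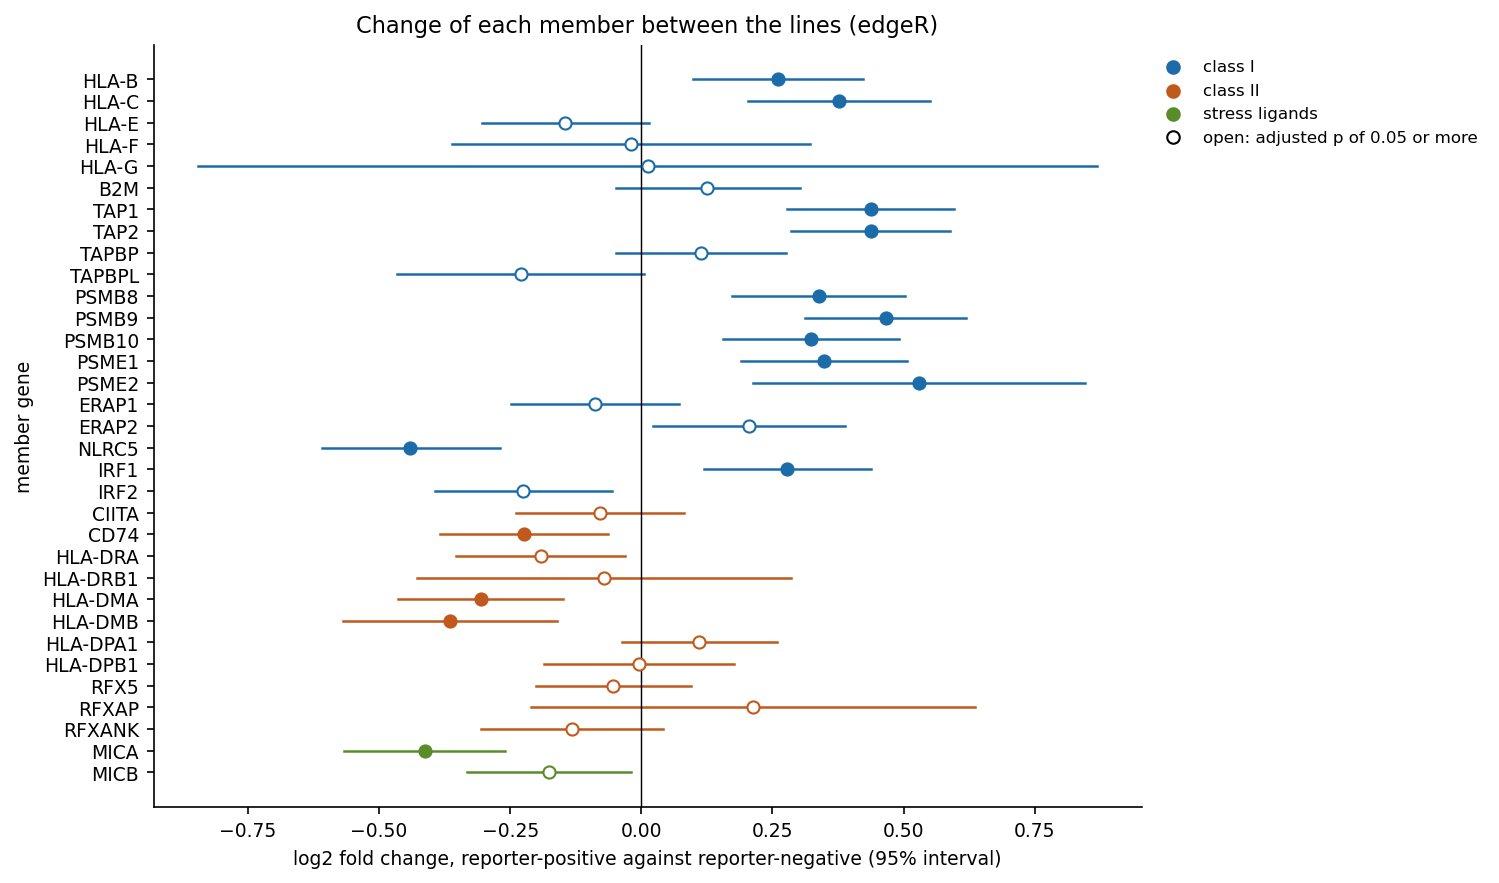
Log2 fold change of each member, reporter-positive against reporter-negative, with its 95% interval; filled points passed the test. All 5 genes of the immunoproteasome and its activator lie to the right of 0, and the class II points lie between -0.37 and 0.21.

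The deposited counts take in introns and both strands, and a read counts for each gene it touches: for 6087 pairs in which a gene of at least 100 counts lies inside another, the outer gene had at least the inner gene's count in all 4 libraries in 6087 cases. MHC genes are packed tightly, so several members share reads, and the main genes sharing them are named below. Reads of HLA genes can also be shared among near-identical family members or lost where the line's alleles differ from the reference, so values of HLA genes are uncertain in that respect.

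The class I heavy chains did not move as one. HLA-B, a classical heavy chain gene that presents peptides to CD8 T cells (chromosome 6, 31269491 to 31357188 on GRCh38, minus strand), stood at 201 and 216 CPM in N1 and N2 and at 238 and 261 CPM in P1 and P2. Both reporter-positive libraries lay above both reporter-negative ones, and HLA-B rose 1.2-fold (log2 fold change 0.26, SE 0.08, adjusted p = 0.0181). The annotated span of HLA-B reaches over part of HLA-C and over the ribosomal protein pseudogene RPL3P2, whose counts came to 20.5% and 22.9% of those of HLA-B. With the counts of all overlapping genes taken off, HLA-B went from 104 and 112 to 134 and 141 CPM, a log2 fold change of 0.35 (SE 0.07, adjusted p = 0.00124). HLA-B lost its call when N1 or N2 was left out (adjusted p = 0.425 and 0.165).

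HLA-C, the other classical chain among the members and also a ligand of NK cell receptors, was at 39.7 and 42.0 CPM in N1 and N2 and at 48.6 and 57.7 CPM in P1 and P2. It rose 1.30-fold (log2 fold change 0.38, SE 0.08, adjusted p = 0.00212), and its counts could not be separated from those of HLA-B. B2M, the light chain gene, lies on chromosome 15 and is free of such overlap. It measured 324 and 323 CPM against 326 and 381 CPM, so only P2 stood clearly higher, and it did not pass (log2 fold change 0.13, 95% interval -0.05 to 0.30, adjusted p = 0.333; 0.24 and 2.57e-04 without P1).

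Of the nonclassical chains, HLA-E, which NK cells read through CD94/NKG2A, was at 163 and 178 CPM in N1 and N2 and at 148 and 159 CPM in P1 and P2. Its direction was opposite to that of HLA-B, but it did not pass (log2 fold change -0.15, 95% interval -0.30 to 0.01, adjusted p = 0.201; -0.20 and 0.00228 without P2). HLA-F lay between 3.09 and 3.45 CPM in all 4 libraries with overlapping lines, and shares its span with HLA-F-AS1, whose counts came to 92.6% of its own, and with the pseudogene AL645939.1 (31.8%). HLA-G, known from the placenta and overlapping the pseudogene HCG4P8 (14.2% of its counts), lay between 0.267 and 0.653 CPM, with the lowest and highest values in the reporter-positive line, and an interval of -0.84 to 0.87 on the log2 scale leaves its direction unknown. Set per kb of annotated exon, the mean level in the reporter-negative line was 68.2 CPM for HLA-B, 57.2 for HLA-E, 53.3 for B2M and 16.3 for HLA-C, against 0.764 for HLA-F and 0.264 for HLA-G. In the reporter-positive line the same measure gave 81.7 for HLA-B, 58.1 for B2M, 51.7 for HLA-E and 21.2 for HLA-C, so B2M and HLA-E changed places, though neither passed the test. Counts take in introns and, in HLA-B, a pseudogene, so this order is approximate.

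Both TAP transporter genes rose, while the tapasin genes did not pass. TAP1 (chromosome 6, 32845209 to 32853978, minus strand) was at 56.2 and 59.1 CPM in N1 and N2 and at 73.5 and 82.7 CPM in P1 and P2. That is a 1.35-fold rise with no overlap of the lines (log2 fold change 0.44, SE 0.08, adjusted p = 2.00e-04). TAP2, its partner in the transporter, went from 99.9 and 104 to 135 and 141.5 CPM, also 1.35-fold (log2 fold change 0.44, SE 0.07, adjusted p = 1.20e-04). TAP2 lies wholly inside AL669918.1, an annotated gene on the same strand whose counts came to 101% of those of TAP2, so the pair holds nearly the same reads.

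TAPBP, which bridges TAP to the empty class I molecule, stood at 209 and 193 CPM against 206 and 228 CPM. Its lines overlapped, with an interval of -0.05 to 0.28 on the log2 scale (adjusted p = 0.352), and it passed without P1 (log2 fold change 0.19, adjusted p = 0.00264). TAPBPL, a tapasin-related peptide editor on chromosome 12, measured 10.8 and 10.4 CPM against 9.97 and 8.04 CPM (log2 fold change -0.23, 95% interval -0.47 to 0.01, adjusted p = 0.167; -0.40 and 0.00531 without P1). It shares reads with VAMP1, at 64.1% of its counts, and with CD27, at 41.6%.

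All 5 genes of the immunoproteasome and its activator were called higher, beside 11.6% of all genes tested. They are not 5 separate observations, since PSMB8 and PSMB9 share reads, and some calls rest on single libraries, as given below. The catalytic subunits of the immunoproteasome replace their standard counterparts in cells exposed to interferon and change which peptides are made. PSMB9, which replaces PSMB6, was at 71.1 and 74.0 CPM in N1 and N2 and at 96.1 and 104 CPM in P1 and P2. It rose 1.38-fold (log2 fold change 0.47, SE 0.07, adjusted p = 6.91e-05). PSMB9 and TAP1 are known to share a promoter region, and the annotated span of PSMB9 (chromosome 6, 32844136 to 32859585, plus strand) takes in all of TAP1, so most of its counts are those of TAP1. The reads outside TAP1 came to 14.8 and 14.9 CPM against 22.6 and 21.6 CPM, a log2 fold change of 0.57 (SE 0.08, adjusted p = 2.27e-05; a subtraction added after seeing the data). These reads are not PSMB9 alone, since they can include those shared with PSMB8 and PSMB8-AS1, whose counts came to 41.6% and 20.2% of those of PSMB9. Taking off all 3 overlapping genes gave counts below 0 in each library, so no value for PSMB9 by itself could be had.

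PSMB8, the next gene along and the one that replaces PSMB5, was at 31.1 and 32.3 CPM in N1 and N2 and at 37.6 and 42.6 CPM in P1 and P2 (1.26-fold, log2 fold change 0.34, SE 0.08, adjusted p = 0.00327). Its first bases are shared with PSMB9 and PSMB8-AS1, and it lost its call without N1 (adjusted p = 0.0697). TAP1, PSMB9 and PSMB8 are therefore neighbours with reads in common, not 3 separate observations. PSMB10, which replaces PSMB7, lies apart on chromosome 16. It went from 17.95 and 18.2 to 22.1 and 23.2 CPM (1.25-fold, log2 fold change 0.32, SE 0.08, adjusted p = 0.00528), with AC040162.1 on the same strand at 86.7% of its counts. The few counts left after taking that gene off did not pass (log2 fold change 0.50, SE 0.20, adjusted p = 0.0782), and the call was also lost when N1 or N2 was left out (adjusted p = 0.0838 and 0.0618).

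PSME1 and PSME2 encode the PA28 activator, a ring that docks on the proteasome, and are neighbours on chromosome 14. PSME1 was at 58.3 and 58.0 CPM in N1 and N2 and at 69.3 and 78.8 CPM in P1 and P2 (1.27-fold, log2 fold change 0.35, SE 0.08, adjusted p = 0.00177). It also passed with the counts of the adjoining EMC9 taken off (log2 fold change 0.38, SE 0.08, adjusted p = 0.00110). PSME2 was at 11.1 and 11.6 CPM against 19.1 and 13.4 CPM, so its size rests on P1: the log2 fold change was 0.53 (SE 0.14, adjusted p = 0.0209) with that library and 0.25 (adjusted p = 0.0687) without it. RNF31 overlaps the start of PSME2 and its counts came to 322% of those of PSME2.

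Constitutive proteasome genes were counted beside these; the difference between the groups was not tested. Of 17 constitutive proteasome genes 1 rose, 2 fell and 14 did not pass, with a median log2 fold change of 0.02. PSMB7 fell from 102 and 103 to 79.4 and 80.0 CPM (1.29-fold lower, adjusted p = 6.05e-04), PSMA7 fell 1.18-fold (adjusted p = 0.0235), and POMP, the chaperone of proteasome assembly, rose 1.2-fold (adjusted p = 0.0157). The calls of PSMA7 and POMP were lost without N1 or N2 (adjusted p = 0.134 to 0.336), and that of POMP without P2 (adjusted p = 0.0723). With total count scaling the median of these genes was -0.07 and 0 were higher, and without P1 4 were higher. Ratios of counts within a library do not depend on scaling between libraries. PSMB8 over PSMB5 was 0.496 and 0.510 in N1 and N2 and 0.612 and 0.666 in P1 and P2. PSMB10 over PSMB7 was 0.176 and 0.177 against 0.279 and 0.290, a gap made up of both higher counts in the PSMB10 span and a lower PSMB7. AC040162.1 had 86.7% of the counts of PSMB10, and PSMB8 shares reads with PSMB9 and PSMB8-AS1. Neither ratio is therefore known to be that of the subunit alone. PSMB9 over PSMB6 was 1.04 in both reporter-negative libraries against 1.43 and 1.49, and with only the reads of the PSMB9 span outside TAP1, some of them shared with PSMB8 and PSMB8-AS1, it was 0.218 and 0.209 against 0.337 and 0.308. In each pair both reporter-positive libraries lay above both reporter-negative ones.

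**Figure D3:**
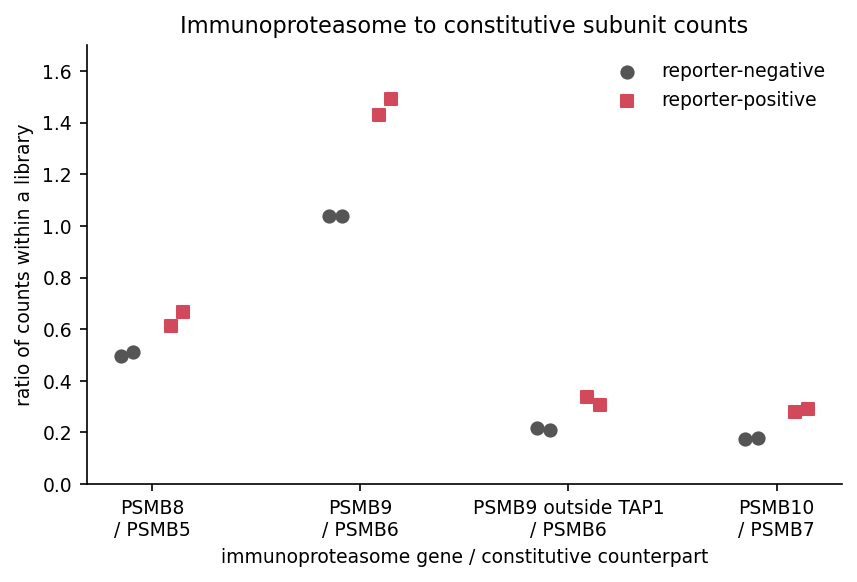
Counts of each immunoproteasome gene divided by those of the constitutive subunit it replaces, in each library (y axis from 0; circles reporter-negative, squares reporter-positive). For each of the 4 ratios the 2 reporter-positive points lie above the 2 reporter-negative points.

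Trimming genes did not pass. ERAP1 was at 178 and 182 CPM in N1 and N2 and at 159 and 179 CPM in P1 and P2 (log2 fold change -0.09, 95% interval -0.25 to 0.07, adjusted p = 0.484; -0.18 and 0.00649 without P2). CAST overlaps ERAP1 on the opposite strand, with 17710 and 17307 counts in N1 and N2 and 12700 and 10781 in P1 and P2, or 140% of those of ERAP1. ERAP2, at 15.7 and 14.2 CPM against 17.3 and 17.1 CPM, gave a log2 fold change of 0.21 (95% interval 0.02 to 0.39, adjusted p = 0.106) and lies wholly inside AC009126.1 on the opposite strand, at 116% of its counts.

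Regulators of class I went both ways. NLRC5, the class I transactivator (chromosome 16, 56989485 to 57083531, plus strand), fell from 26.7 and 24.8 CPM in N1 and N2 to 19.5 and 18.4 CPM in P1 and P2. The fall was 1.36-fold (log2 fold change -0.44, SE 0.08, adjusted p = 3.73e-04), opposite in direction to the rises of HLA-B, HLA-C and TAP1, which NLRC5 is known to activate. With the counts of 2 small genes inside it taken off, it fell by 0.48 on the log2 scale (adjusted p = 2.04e-04). IRF1, an interferon-induced activator of TAP1 and PSMB9, rose 1.21-fold, from 31.6 and 29 to 37.0 and 36.5 CPM (log2 fold change 0.28, SE 0.08, adjusted p = 0.0105), and lost its call without N2 (adjusted p = 0.276). IRF1 lies wholly inside AC116366.3 on the opposite strand, whose counts came to 254% of its own, and overlaps C5orf56 (126%), so its reads cannot be told from theirs. IRF2, which competes with IRF1 at many sites, was at 21.8 and 22.4 CPM against 19.5 and 18.3 CPM, just short of the threshold (log2 fold change -0.22, 95% interval -0.39 to -0.06, adjusted p = 0.0520). It was called lower in 4 of 11 alternative fits.

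Class II genes had counts in both lines. B and T cell markers were near 0, while all 17 leukocyte and antigen-presenting cell markers summed to between 166 and 188 CPM per library. Most of that sum was CSF1R, which overlaps a pseudogene. The 3 class II genes that fell act in guarding and loading class II molecules. CD74, the invariant chain gene on chromosome 5 (150401637 to 150412929, minus strand), was at 331 and 338 CPM in N1 and N2 and at 278.5 and 294 CPM in P1 and P2. It fell 1.17-fold with no overlap of the lines (log2 fold change -0.22, SE 0.08, adjusted p = 0.0396). That call was lost with RLE scaling (adjusted p = 0.0682) and when N1 or N2 was left out (adjusted p = 0.379 and 0.428).

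HLA-DMA and HLA-DMB encode the chains of the HLA-DM peptide editor. HLA-DMA was at 34.6 and 34.5 CPM against 28.7 and 27.2 CPM (1.24-fold lower, log2 fold change -0.31, SE 0.08, adjusted p = 0.00482). HLA-DMB, on the same stretch of chromosome 6, was at 12.2 and 12.3 CPM against 9.39 and 9.62 CPM (1.29-fold lower, log2 fold change -0.37, SE 0.10, adjusted p = 0.00909). In both genes the reporter-positive libraries lay below the reporter-negative ones, with little spread within a line. AL645941.2 runs across parts of both genes on the same strand, so they share reads with it, and both calls were lost when N1 or N2 was left out (adjusted p from 0.0639 to 0.0965 over the 2 genes). BRD2 overlaps the start of HLA-DMA, at 656% of its counts.

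The class II chains themselves did not pass. HLA-DRA, the alpha chain of HLA-DR, was at 50.0 and 46.1 CPM in N1 and N2 and at 39.9 and 44.3 CPM in P1 and P2 (log2 fold change -0.19, 95% interval -0.35 to -0.03, adjusted p = 0.0843), and passed with the library number as a block (adjusted p = 0.0414) and with total count scaling (log2 fold change -0.28, adjusted p = 0.0144). It also passed without P2 (-0.28, adjusted p = 9.53e-04). HLA-DRB1, its partner, lay between 4.90 and 7.02 CPM, both extremes in the reporter-negative line (log2 fold change -0.07, 95% interval -0.43 to 0.28), and its sequence is close to those of other DRB genes. HLA-DPA1 was at 55.5 and 57.8 CPM against 60.1 and 62.2 CPM, a log2 fold change of 0.11 with an interval of -0.04 to 0.26 (adjusted p = 0.312). HLA-DPB1, which shares reads with HLA-DPA1, was at 17.1 to 19.5 CPM in the reporter-negative and at 18.3 CPM in both reporter-positive libraries (95% interval of the log2 fold change -0.18 to 0.18).

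Nor did the class II regulators pass. CIITA, the class II transactivator, was at 46.8 and 42.2 CPM in N1 and N2 and at 43.7 and 40.6 CPM in P1 and P2, with overlapping lines (log2 fold change -0.08, 95% interval -0.24 to 0.08, adjusted p = 0.548). DEXI lies inside its span with 43.8% of its counts, and with that gene's counts taken off the log2 fold change was -0.01 (adjusted p = 0.961). The RFX complex genes, which serve both classes, gave log2 fold changes of -0.05 for RFX5 (95% interval -0.20 to 0.09), 0.21 for RFXAP (-0.21 to 0.64) and -0.13 for RFXANK (-0.31 to 0.04). RFX5 was at 51.3 to 54.5 CPM, RFXANK at 23.3 to 28.3 CPM and RFXAP at 1.64 to 2.23 CPM over the 4 libraries. RFX5 holds AL391069.1, at 29.5% of its counts, and RFXANK overlaps NR2C2AP (59.5%) and BORCS8 (42.0%). Per kb of exon, CD74 had the highest reporter-negative level of the 11 class II members at 105 CPM, followed by HLA-DRA at 37.6, HLA-DMA at 13.6, RFX5 at 11.8, RFXANK at 10.7 and HLA-DPA1 at 9.86, while HLA-DMB stood at 2.63 and CIITA at 2.14.

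MICA and MICB are stress-induced ligands of the NK cell receptor NKG2D that resemble class I heavy chains but carry no peptide. MICA (chromosome 6, 31399784 to 31415315, plus strand) was at 61.1 and 56.2 CPM in N1 and N2 and at 45.2 and 42.9 CPM in P1 and P2. It fell 1.33-fold (log2 fold change -0.41, SE 0.07, adjusted p = 2.68e-04), with HCP5 on the same strand across most of its span at 126% of its counts. MICB, which had no gene overlapping it, was at 38.9 and 39.95 CPM against 33.6 and 36.2 CPM (log2 fold change -0.18, 95% interval -0.33 to -0.02, adjusted p = 0.105). MICB passed with total count scaling (log2 fold change -0.26, adjusted p = 0.0261) and without P2 (-0.24, adjusted p = 0.00894).

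The surroundings of the MHC genes on chromosome 6 moved too. Between 28 and 34 Mb, 151 other protein-coding genes were tested, of which 57 fell and 10 rose, or 37.7% and 6.62%, with a median log2 fold change of -0.21. Without N1 these were 22 and 5, and without N2 28 fell. The fall was not limited to the MHC: of 499 protein-coding genes that start before 60 Mb on that chromosome, 193 fell and 38 rose (median -0.21), against 17 and 79 of 384 that start after 60 Mb (median 0.11). Of all 16924 protein-coding genes tested outside the members, 14.8% fell and 14.7% rose (median -0.006). The 10 class I members on chromosome 6 had a median of 0.30, with 6 higher and none lower. The 6 class II members there had a median of -0.13, with 2 lower, and MICA and MICB had -0.41 and -0.18. The medians of class II and stress ligand genes there had the same sign as that of the neighbours, and the values of HLA-B, HLA-C, TAP1, TAP2, PSMB8 and PSMB9 lay on the other side of 0. The part that the chromosome has in these values was not tested, and no gene copy numbers were analysed here.

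Away from chromosome 6, the 10 class I members had a median of 0.16, with 4 higher and 1 lower, and the 5 class II members a median of -0.08, with CD74 lower. Other protein-coding genes within 5 Mb of PSME1 and PSME2 had a median log2 fold change of -0.01 (102 genes), those near PSMB10 -0.07 (130 genes), those near IRF1 0.02 (62 genes) and those near CD74 0.01 (74 genes). Those near NLRC5 had a median of -0.23 (61 genes, 21 of them lower), beside -0.44 for NLRC5 itself. The 5 Mb windows were chosen after seeing the data. The part that these surroundings have in the values of the members was not tested.

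**Figure D4:**
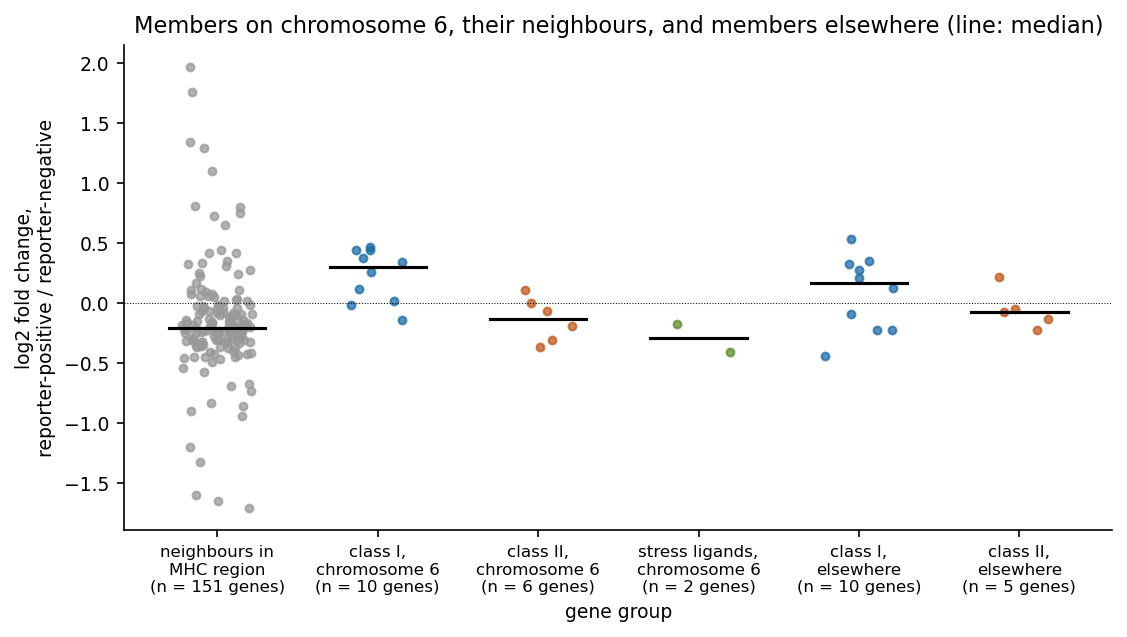
Log2 fold change (y axis) of the 151 neighbours in the MHC region, of the members on chromosome 6 and of the members elsewhere; each point is a gene and each line a median. The neighbours' median is -0.21, and that of the class I members on chromosome 6 is 0.30.

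Genes around the pathway were read from the same fit, as counts over lists, beside 11.6% higher and 10.9% lower of all genes tested. Interferon-response genes were mixed: of 53 tested 15 rose, 8 fell and 30 did not pass, with a median log2 fold change of 0.12. The guanylate-binding protein genes GBP4 and GBP5 (the latter overlaps AC099063.1) rose 2.04-fold (adjusted p = 2.80e-06) and 3.61-fold (adjusted p = 2.94e-04), GBP5 from a mean of 0.288 CPM. UBE2L6, an ISG15-conjugating enzyme gene, rose 1.55-fold (adjusted p = 5.02e-06). Without N1 the list gave 9 higher and 4 lower genes, and without N2 4 lower. The interferon gene IFNB1 had no counts in any library, and IFNG was not analysed here.

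Of 12 interferon receptor and signalling genes tested 3 rose, 4 fell and 5 did not pass. IFNGR1, a chain of the interferon gamma receptor, rose 1.55-fold from 28.8 and 28.9 to 42.3 and 47.3 CPM (adjusted p = 3.07e-06). The interferon lambda receptor gene IFNLR1 fell 1.88-fold (adjusted p = 1.07e-04). SOCS3, a feedback inhibitor of cytokine signalling, fell 1.45-fold (adjusted p = 4.34e-05). Without N1 or N2, and with total count scaling, 1 gene of this list was higher.

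Among 14 assembly and trimming genes of the class I route outside the members 6 rose and none fell, with a median of 0.20. Calnexin (CANX), the chaperone that holds new heavy chains, rose 1.37-fold from 845 and 856 to 1087 and 1252 CPM (adjusted p = 0.00117). The general chaperone gene HSPA5 rose 1.43-fold (adjusted p = 1.47e-04), the translocon gene SEC61A1, which overlaps RUVBL1, rose 1.44-fold (adjusted p = 3.89e-05), and BCAP31, an export receptor gene, rose 1.23-fold (adjusted p = 0.00355). The calls of CANX and BCAP31 were lost without N1 or N2 (adjusted p = 0.0883 to 0.154), which left 2 genes higher in each case, and 3 genes were lower without P2. These chaperones serve many secretory proteins besides class I molecules.

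Of 17 processing and promoter-binding genes of the class II route 1 rose, 6 fell and 10 did not pass, with a median of -0.02. The gene that rose was CTSS, the endosomal protease that trims the invariant chain in antigen-presenting cells. It went from 4.14 and 4.79 CPM in N1 and N2 to 23.3 and 24.9 CPM in P1 and P2, 5.39-fold (log2 fold change 2.43, SE 0.10, adjusted p = 3.29e-13), and no gene of the table overlaps it. The other cathepsin genes named by the rule went the opposite way: CTSL fell 1.88-fold (adjusted p = 4.81e-08), CTSD, which shares its reads with AC068580.4, fell 1.85-fold (adjusted p = 1.34e-07) and CTSF fell 1.5-fold (adjusted p = 6.55e-06). Without P1 3 genes of the list were higher, and without P2 2 were.

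Of 8 other HLA and class I-like genes tested 1 rose, 2 fell and 5 did not pass. AZGP1, a secreted class I-like protein gene, rose 3.12-fold to 4.68 CPM (adjusted p = 5.13e-07), PROCR, the endothelial protein C receptor gene that overlaps MMP24OS, fell 1.30-fold (adjusted p = 9.89e-04), and HLA-DOA, an inhibitor chain of HLA-DM, fell 2.30-fold from 0.915 CPM (adjusted p = 0.0233). That call was lost without N1 (log2 fold change -0.59, adjusted p = 0.497), which left 1 gene lower, and without P1 2 genes of this list were higher. Of 23 surface ligands read by T and NK cells 8 rose, 3 fell and 12 did not pass, with a median of 0.24. ICAM1, the adhesion ligand of T cells and a known NF-kappaB target, rose 2.25-fold (adjusted p = 2.53e-10) and overlaps AC011511.2. The costimulator gene ICOSLG rose 2.64-fold (adjusted p = 3.76e-07), and CD80, a costimulator gene whose span is shared with the far more counted TIMMDC1, rose 2.15-fold (adjusted p = 1.22e-05), while CD276 fell 1.64-fold (adjusted p = 1.24e-06).

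**Figure D5:**
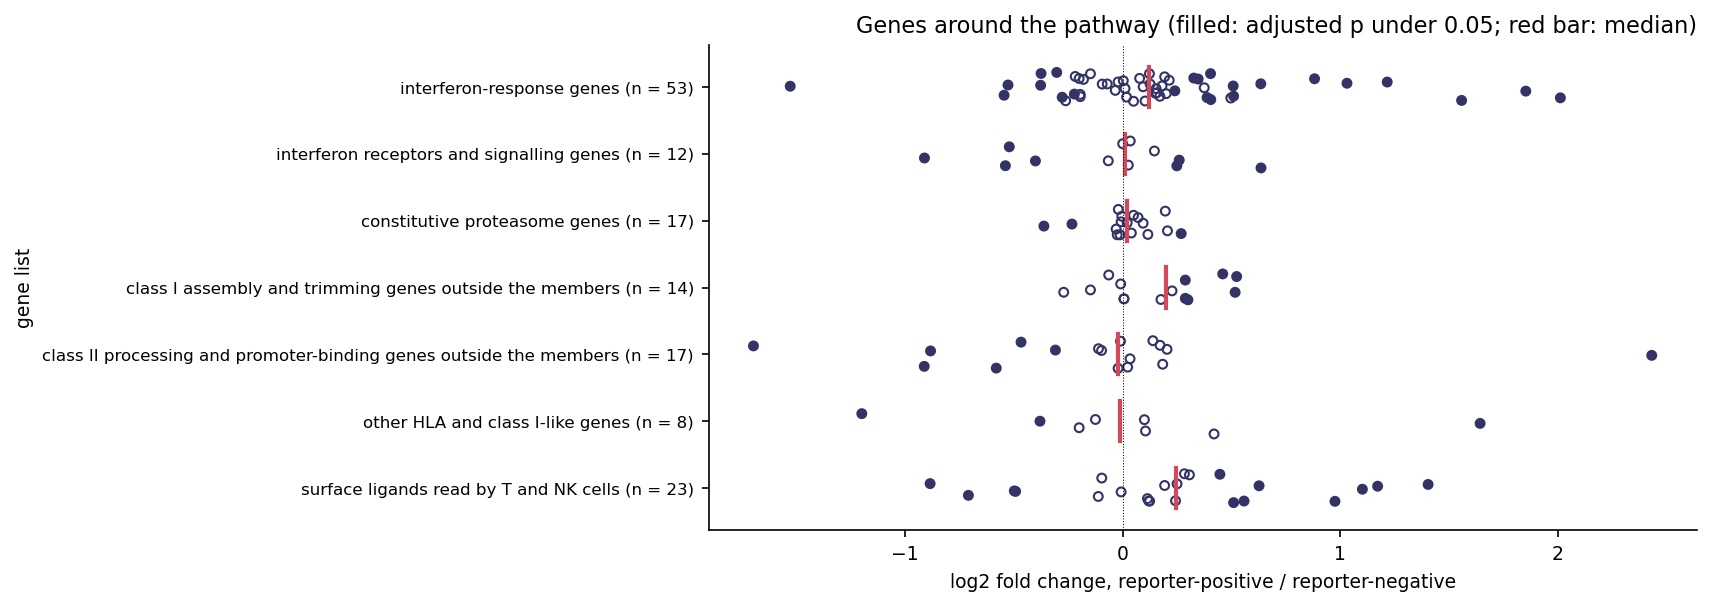
Log2 fold change of each tested gene in 7 lists around the pathway (x axis); filled points passed the test and red bars are medians. The medians run from -0.02 to 0.24, and CTSS, at 2.43, is the point farthest to the right.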

How the data were processed

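Raw read counts per Ensembl gene ID for 4 libraries were deposited by the authors in 1 table and taken unchanged; it held 0 other sample columns. Per the submitters' processing notes, HISAT2, Bowtie2, DESeq2 and hg19 were used, with no version or role stated. Which counter, annotation and strand setting applied is not given in the sources used here. Symbols, positions and overlaps came from GENCODE 29 (GRCh38), which holds all 43714 IDs.

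edgeR 4.0.16 (R 4.3.3) fitted every gene kept by filterByExpr (count 10, total 15), with TMM scaling, a robust quasi-likelihood fit and line as sole term. P-values were adjusted (Benjamini-Hochberg) over 30952 genes, with a threshold of 0.05, and SEs were derived from F. Tested on simulated data for this comparison (30354 genes), the fit found 25 of 43 changes of 1.5-fold, 39 of 58 of 2-fold and 45 of 53 of 4-fold, and 3.82% of its calls were false. Changes under 1.5-fold, as those of all called members were, were not simulated. Far fewer genes were changed in the simulation than were called in the data, so its share of false calls need not hold here. Libraries within a line differed by more than counting error (chi-square over its degrees of freedom 37.0 and 19.3).

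Members and lists were chosen with earlier results of these data known. The text names the 33 members, genes sharing at least 10% of a member's counts where they matter, and up to 4 genes of each list by smallest adjusted p, not all of which are discussed. Promoters (RefSeq) were searched with Python 3.11.15 and pandas 2.3.3. Tried besides: RLE or total count scaling, no filter, a filter of 1 CPM in 2 libraries, DESeq2 1.42.0, limma-voom (limma 3.58.1), a replicate block, each library left out, and counts of overlapping genes subtracted (the version for genes lying inside a member was chosen after seeing the data, as were the 60 Mb boundary and the 5 Mb windows).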

Additional observations from a re-analysis of the deposited data

How the results depend on the processing

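HLA-C, TAP1, TAP2, PSMB9, PSME1, NLRC5 and MICA kept their direction and their call in 11 of 11 alternative fits, and no called member changed direction in any fit run. Total count scaling gave 2270 higher genes in all, 6 higher and 3 lower class I members and 2 lower stress ligand genes, and it ended the calls of HLA-B, PSMB10, PSME2 and IRF1 (adjusted p from 0.0687 to 0.111). Among the lists it gave 1 higher interferon receptor or signalling gene, 0 higher constitutive proteasome genes and 1 lower class I assembly gene. The filter at 1 CPM gave 2 lower class I members, 2 higher constitutive proteasome genes and 1 lower gene among other HLA genes, and DESeq2 and limma-voom also gave 1 there. Restricted to members with little overlap (4 of class I, 4 of class II), 0 class I members were higher, 0 were lower and 1 class II member was lower, with fewer genes counted.

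Library numbers did not pair the samples (correlation of deviations -0.0258). With the number as a replicate block, 2 class I members were lower, IRF2 and HLA-DRA passed, and the lists gave 2 higher constitutive proteasome genes, 1 lower class I assembly gene and 2 higher class II processing genes.

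Leaving out 1 library at a time gave 2333 to 4704 higher and 2025 to 4457 lower genes in all. It gave 1 to 3 lower class I members, 0 to 4 lower class II members and 1 to 2 lower stress ligand genes. Interferon-response genes ranged from 9 to 20 higher and 4 to 10 lower, interferon receptor and signalling genes from 1 to 3 higher, and constitutive proteasome genes from 0 to 4 higher and 1 to 2 lower. Class I assembly genes ranged from 2 to 8 higher and 0 to 3 lower, class II processing genes from 1 to 3 higher, and other HLA genes from 1 to 2 higher and 1 to 2 lower. MHC region neighbours ranged from 5 to 13 higher and 22 to 65 lower. Among the class I members that rose, HLA-B, PSMB8, PSMB10, PSME2 and IRF1 each lost their call with some single library left out. The cause of these shifts was not tested.

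Direction turned only for members that did not pass. The log2 fold change of HLA-G, which rests on 14 to 41 counts per library, was -0.062 with total count scaling, -0.096 with limma-voom and -0.065 with the block. That of CIITA was 0.019 after subtraction, and that of HLA-DPB1 0.002 with RLE scaling and with DESeq2. Leaving out 1 library gave -0.790 to 0.482 for HLA-G, -0.153 to 0.002 for CIITA, -0.090 to 0.088 for HLA-DPB1, -0.309 to 0.218 for HLA-DRB1 and -0.098 to 0.045 for HLA-F.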
